A study of Mus musculus with 12 samples.

Results

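The retinoid metabolism genes described here are 8 of the 48321 genes listed in the deposited matrix. They were chosen by symbol as enzymes and binding proteins that handle vitamin A: Stra6, Adh1, Rdh10, Aldh1a1, Aldh1a2, Aldh1a3, Aldh1a7 and Crabp2. Each was followed in 12 RNAseq libraries of brown adipocytes that had been differentiated for 8 days from preadipocytes of a WT newborn mouse immortalized with SV40 large T antigen. The study asked how a truncated, soluble form of semaphorin 4B (tSema4B), built to mimic the fragment that the protease ADAM17 releases, alters adipocyte gene expression with and without norepinephrine (NE), the transmitter that activates brown fat. The 4 groups of 3 libraries were both lines without stimulation and both lines after NE, where vector cells carried the empty pLEX lentivirus and tSema4B cells the same lentivirus with Flag-tagged tSema4B. All cells were puromycin selected and differentiated with isobutylmethylxanthine, rosiglitazone, dexamethasone, insulin and triiodothyronine, and the final step was serum-free medium with 2 μM NE or without NE for 6 h. There was a single stable line per construct and the libraries of a group are called technical replicates, so every p-value below measures only the spread between these libraries.

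Retinol enters cells from its plasma carrier and is oxidised first to retinal, mainly by membrane-bound retinol dehydrogenases and also by cytosolic alcohol dehydrogenases. Retinaldehyde dehydrogenases then oxidise retinal irreversibly to retinoic acid, which cellular binding proteins hand to nuclear retinoic acid receptors. Adipose tissue stores retinol and releases its carrier, and retinoic acid is known as an activator of Ucp1 transcription in brown adipocytes.

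Values are normalised read counts, that is reads per gene divided by a size factor per library. The libraries held between 2000780 and 5409583 reads on genes, the vector NE libraries being the deepest, and 1 read was worth between 0.593 and 1.55 normalised counts. Sema4b lay between 110786 and 124008 normalised counts in vector unstimulated libraries and between 258257 and 316850 in tSema4B unstimulated ones, and between 65472 and 81754 against 208760 and 270694 with NE, so it was higher in every tSema4B library. The fold was 2.40 unstimulated and 3.15 with NE. Sema4b was also very abundant in vector unstimulated libraries, at 20690 normalised counts per kilobase of annotated exon, against 5354 for Fabp4. The source of these reads was not tested. All 10 adipocyte markers were called lower in tSema4B cells in both conditions (their sum lay between 41657 and 47603 in vector and between 6956 and 9783 in tSema4B cells unstimulated, and between 55987 and 67992 against 11041 and 12480 with NE). The sum of 11 preadipocyte and fibroblast markers went the other way, from between 15975 and 16737 to between 30006 and 34177 unstimulated. With NE it went from between 13060 and 15251 to between 28163 and 29944. Most of the sum was Col1a1 and Col3a1, with unstimulated means of 5737 and 6905 in vector and 11724 and 14462 in tSema4B cells. Of the 9 tested, 3 (Col1a1, Col3a1 and Fap) were called higher in both conditions. At the adjusted p alone 7 were higher unstimulated and 8 with NE. Thy1 was at log2 fold changes of -0.12 and 0.10. Of 8 brown adipocyte markers Dio2 had no read and Ucp1 was at 0 in all 3 tSema4B unstimulated libraries. The sum of the 8 was between 167 and 237 in vector and between 41.7 and 69.8 in tSema4B cells unstimulated. With NE it was between 480 and 515 against 119 and 152. Much of the sum with NE was Ucp1 alone, which ran from 268 to 293 in vector libraries and from 60.8 to 66.5 in tSema4B libraries. Among the 6 tested, 4 (Cidea, Cox7a1, Elovl3 and Ucp1) were called lower in both conditions. Prdm16 was at log2 fold changes of -1.17 unstimulated and -0.31 with NE and was not called. Ppargc1a went the other way, at 0.41 and 0.36, and was not called either. The sums of 6 macrophage and 5 endothelial markers were at most 24.6 in any library, with Ptprc, Adgre1, Mrc1 and Kdr at 0 throughout. The macrophage sum was higher with NE, from between 3.36 and 7.60 to between 13.4 and 23.6 in vector cells and from between 0 and 5.48 to between 9.65 and 24.6 in tSema4B cells. Csf1r, the 1 of the 6 that passed the filter for testing, reached 10 normalised counts only in NE libraries. Its test with NE therefore decides nothing and is not given.

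A gene was tested with limma if it reached 10 normalised counts in at least 3 libraries (11998 genes), and was called at an adjusted p of at most 0.05 where its log2 fold change also reached 1 in either direction. Fold changes are on the log2(normalised count + 1) scale. 4 of the 8 members passed this filter, namely Adh1, Rdh10, Aldh1a1 and Aldh1a7, and each was above it in all 12 libraries. The other 4 (Stra6, Aldh1a2, Aldh1a3 and Crabp2) did not reach it.

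Aldh1a1 and Aldh1a7 are neighbouring paralogues on opposite strands. Their coding regions are much alike, as are the 110 bases before the starts compared below. Their sequences are shown first because their values moved apart. In the GENCODE annotation of GRCm38, the build of the deposited matrix, Aldh1a1 (ENSMUSG00000053279.8) is at chr19:20492715-20643465 on the plus strand and Aldh1a7 (ENSMUSG00000024747.3) at chr19:20692953-20727562 on the minus strand, with 49487 bases between them. The coding regions of their main transcripts are 1503 bases each and identical at 1377 positions (91.6%). The windows below are the 60 coding bases with the most differences, bases 317 to 376 counted from the start codon, with the 16 differing bases in capitals.
Aldh1a1: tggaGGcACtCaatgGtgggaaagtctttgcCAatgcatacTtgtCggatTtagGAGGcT
Aldh1a7: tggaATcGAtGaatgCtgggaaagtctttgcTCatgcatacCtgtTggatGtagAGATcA
The longest run that both coding regions hold is 100 bases, bases 757 to 856 of each, and is shown as the stretch where reads cannot be told apart.
Shared run: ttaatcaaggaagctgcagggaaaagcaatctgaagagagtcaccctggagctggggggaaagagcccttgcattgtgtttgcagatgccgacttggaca
Of the 1967 windows of 100 bases in the Aldh1a7 transcript 1 was identical in an Aldh1a1 transcript. Reads were single-end, of 100 bases. The handling of reads with several hits is not given in the sources used here, so reads from that stretch may have been shared or lost, and the values of both genes are uncertain to that extent.

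The promoters are also alike next to the start. RefSeq promoter windows (GRCm38.p6) were found for 5 of the 8 members, and for Aldh1a1, which has more than 1 start there, the window most like that of Aldh1a7 is used. Only the 110 bases before the start aligned, identical at 104 positions (94.5%), and they are shown with the 6 differing bases in capitals, for Aldh1a1 at chr19:20601858-20601967 on the plus strand and for Aldh1a7 at chr19:20727557-20727666 on the minus strand.
Aldh1a1: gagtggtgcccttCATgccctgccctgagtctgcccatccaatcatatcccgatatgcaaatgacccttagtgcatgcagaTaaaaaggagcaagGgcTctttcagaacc
Aldh1a7: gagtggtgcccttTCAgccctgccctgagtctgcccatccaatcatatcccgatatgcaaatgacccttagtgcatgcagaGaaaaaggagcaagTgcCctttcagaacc
On both strands of the 250 bases before the start, 6 motifs were searched. CCAAT (in 33.8% of 32536 RefSeq windows of that length) and the octamer ATGCAAAT (1.62%) lay at the same places in both genes, at -72 to -68 and -56 to -49 from the start, without overlap. Aldh1a7 also held CCAAT at -137 to -133 and TATAAA (12.3%) at -244 to -239, while CACGTG (6.04%), TGACG (17.9%) and AGGTCA (14.0%) were in neither. In the Adh1 window (chr3:138277335-138277584, plus strand) none of the 6 was found. These are matches of letters only.

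**Figure D1:**
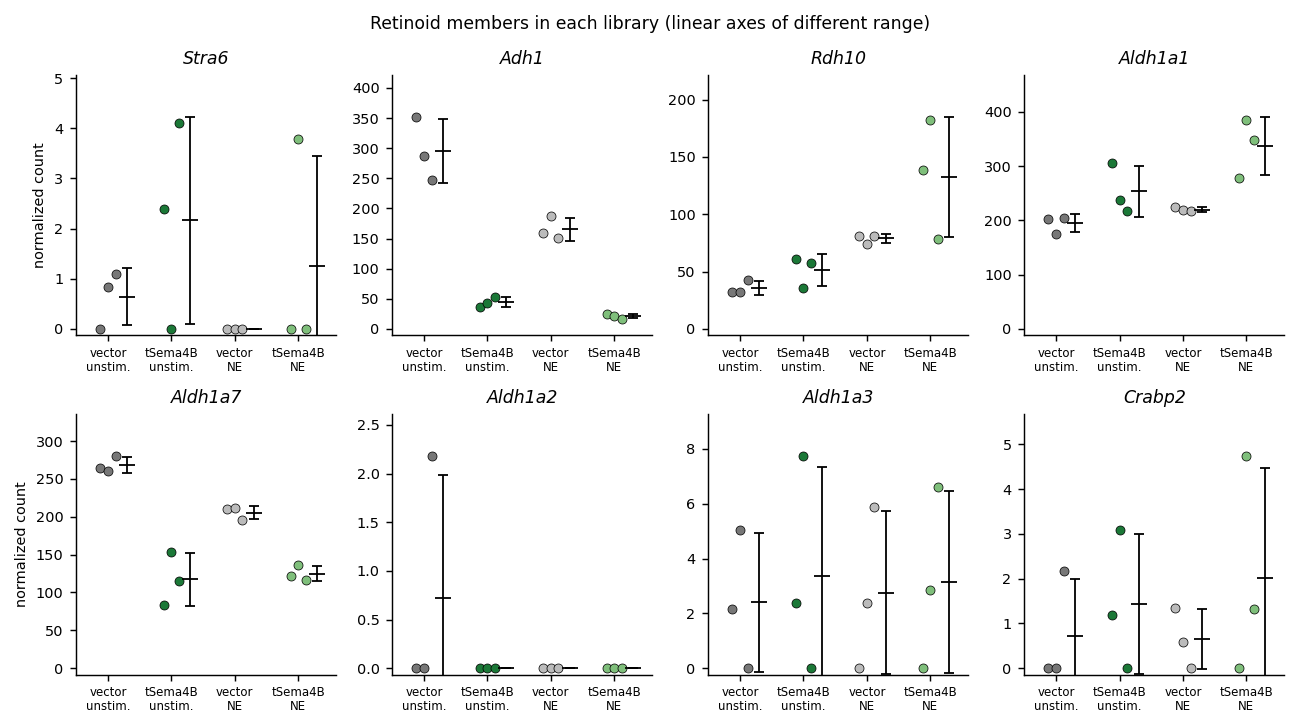
Normalised count (y axis, linear, a different range in each panel) of the 8 members in the 12 libraries by group (x axis); points are libraries and the bar beside them is the mean ± SD (n = 3). Adh1 and Aldh1a7 are lower in every tSema4B library than in any vector library of the same condition, Rdh10 is higher with NE, and Stra6, Aldh1a2, Aldh1a3 and Crabp2 stay at 7.73 or below.

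Uptake was at the edge of detection. Stra6, the membrane receptor that takes up retinol from its plasma carrier (ENSMUSG00000032327.14, chr9:58063788-58153996, plus strand), had between 0 and 4 reads per library, with reads in 2 of 3 vector unstimulated, 2 of 3 tSema4B unstimulated, 0 of 3 vector NE and 1 of 3 tSema4B NE libraries. A count of 0 allows up to 3 reads, worth between 1.78 and 4.64 normalised counts by library, so a difference in Stra6 was not detectable at this depth. Such limits cover counting error only, since reads without molecular identifiers are not independent molecules.

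The first oxidation step, retinol to retinal, showed opposite patterns for its 2 members. Adh1, a cytosolic alcohol dehydrogenase that oxidises retinol as well as ethanol, was lower in tSema4B cells in both conditions and lower with NE. Rdh10, a membrane-bound retinol dehydrogenase and a major source of retinal in the embryo, was higher with NE in both lines and not called between lines.

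Adh1 (ENSMUSG00000074207.10, chr3:138260991-138290698, plus strand) had normalised counts of 352, 287 and 247 in the vector unstimulated libraries and of 36.9, 43.3 and 53.4 in the tSema4B unstimulated libraries. With NE it had 159, 187 and 151 in vector cells and 24.7, 21.8 and 17.2 in tSema4B cells. Every tSema4B library was below every vector library of either condition, and no 2 groups overlapped. In tSema4B against vector cells the log2 fold change was -2.70 ± 0.22 (SE), 6.51-fold lower, unstimulated (adjusted p = 1.07e-08, limma with Benjamini-Hochberg adjustment) and -2.92 ± 0.22, 7.54-fold lower, with NE (adjusted p = 3.08e-09). Over all alternatives to this fit it lay between -2.84 and -2.48 unstimulated and between -3.03 and -2.49 with NE. The 10 adipocyte markers moved with it, with median log2 fold changes of -2.50 and -2.05, and their part in the fall of Adh1 was not tested. In bulk RNA, fewer cells of a type and less RNA per cell cannot be told apart.

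NE was followed by a further fall of Adh1. It fell by 0.82 on the log2 scale in vector cells (SE 0.22, adjusted p = 0.0171 by limma), under the fold threshold, and by 1.04 in tSema4B cells (SE 0.22, adjusted p = 0.00509), which was called. The groups did not overlap in either line. In vector cells the adjusted p was above 0.05 when any 1 of 4 libraries was left out, at 0.116 and 0.0579 without vector unstimulated replicates 1 and 2 and 0.0654 and 0.0894 without vector NE replicates 1 and 3. The 10 adipocyte markers went both ways with NE in vector cells, with 5 log2 fold changes above 0 and 5 below (median 0.01). Passing the adjusted p were 2 higher and 2 lower. Plin1, a lipid droplet coat protein, had -0.97 (adjusted p = 0.0300) and Pparg, the main adipogenic transcription factor, -0.71 (adjusted p = 0.0146), both under the fold threshold. Retn had 1.16 (adjusted p = 5.73e-04) and was called, and Fabp4 had 0.76 (adjusted p = 5.06e-04), under the fold threshold. In tSema4B cells 7 of the 10 markers were above 0 and 3 below (median 0.33). The call in tSema4B cells is near the fold threshold: without tSema4B unstimulated replicate 3 or tSema4B NE replicate 3 the log2 fold change was -0.90 in each case, with a pseudocount of 10 it was -0.80 and with quantile normalization -0.97. Fitted on the 6 libraries compared only, its adjusted p was 0.171. A difference in this fall between the lines was not detected (interaction -0.21, 95% interval -0.86 to 0.43, adjusted p = 0.867). Of the 2233 exonic bases of Adh1, 136 overlap the antisense gene Gm16559 and the strand setting of the counting is not given in the sources used here.

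Rdh10 (ENSMUSG00000025921.7, chr1:16105774-16133734, plus strand) had normalised counts of 32.6, 32.0 and 42.5 in vector unstimulated libraries and 81.3, 74.1 and 81.2 in vector NE libraries. In tSema4B cells it had 60.8, 35.6 and 57.5 unstimulated and 138, 182 and 78.0 with NE. All NE libraries were above all unstimulated libraries of either line, and tSema4B NE had the widest spread of the 4 groups. NE raised Rdh10 by a log2 fold change of 1.13 ± 0.28 (SE) in vector cells (adjusted p = 0.0113, limma) and 1.31 ± 0.28 in tSema4B cells (adjusted p = 0.00604), both called. Each call rested on single libraries: without vector NE replicate 3 it was 1.11 (adjusted p = 0.0508) in vector cells, and without tSema4B NE replicate 2 it was 1.04 (adjusted p = 0.0527) in tSema4B cells. With a pseudocount of 10 it was 0.97 in vector cells, under the fold threshold. Csf1r, a macrophage marker, was at between 0 and 2.74 normalised counts unstimulated and between 9.65 and 19.8 with NE. The macrophage markers Cd68 and Lyz2 overlapped between unstimulated and NE libraries in both lines, and Ptprc, Adgre1 and Mrc1 had no read. The part of such cells in this result was not tested.

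Between lines Rdh10 was not called. The log2 fold change in tSema4B against vector cells was 0.49 (95% interval -0.11 to 1.08, adjusted p = 0.300 by limma) unstimulated and 0.66 (0.07 to 1.25, adjusted p = 0.105) with NE, and the groups overlapped in both conditions. Without tSema4B NE replicate 3, the lowest library of its group, the value with NE was 1.00 (adjusted p = 0.0159), which passes both thresholds. With each library left out in turn it ranged from 0.39 to 1.00. The interaction was 0.18 (95% interval -0.66 to 1.01, adjusted p = 0.921).

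The second step, retinal to retinoic acid, was represented at the RNA level by Aldh1a1 and its paralogue. Aldh1a1, a cytosolic retinaldehyde dehydrogenase and the form best known from fat, was somewhat higher in tSema4B cells. Aldh1a7, a rodent paralogue of Aldh1a1 with little known activity on retinal, was lower in tSema4B cells and was called in the unstimulated state.

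Aldh1a1 had normalised counts of 203, 176 and 205 in vector unstimulated and 306, 238 and 216 in tSema4B unstimulated libraries. With NE it had 224, 218 and 217 in vector cells and 279, 384 and 348 in tSema4B cells. The lines did not overlap in either condition, but the lowest tSema4B unstimulated library was only just above the highest vector one. The log2 fold change in tSema4B against vector cells was 0.37 ± 0.15 (SE, adjusted p = 0.113, limma) unstimulated and 0.60 ± 0.15 (adjusted p = 0.00601) with NE, the latter past the adjusted p but under the fold threshold. Without tSema4B unstimulated replicate 1 the unstimulated value was 0.23 (adjusted p = 0.411). NE against unstimulated gave 0.18 in vector cells (95% interval -0.13 to 0.49, adjusted p = 0.521) and 0.41 in tSema4B cells (0.10 to 0.72, adjusted p = 0.110), neither past the threshold, and the interaction was 0.23 (-0.21 to 0.67, adjusted p = 0.767).

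Aldh1a7 had normalised counts of 265, 260 and 280 in vector unstimulated and 83.4, 153 and 115 in tSema4B unstimulated libraries. With NE it had 210, 212 and 195 in vector cells and 122, 136 and 116 in tSema4B cells. All 6 tSema4B libraries were below all 6 vector libraries. In tSema4B against vector cells the log2 fold change was -1.23 ± 0.18 (SE, adjusted p = 3.58e-05, limma) unstimulated, which was called, and -0.72 ± 0.18 (adjusted p = 0.00599) with NE, under the fold threshold. That it was called in 1 condition alone does not show a difference between the conditions, nor do the data exclude one. The interaction was 0.51 (95% interval -0.01 to 1.04, unadjusted p = 0.0529, adjusted p = 0.495, limma). With each library left out in turn the interaction ranged from 0.29 to 0.73. NE against unstimulated gave -0.38 in vector cells (adjusted p = 0.190, groups apart) and 0.13 in tSema4B cells (adjusted p = 0.749, groups overlapping, and -0.089 without tSema4B unstimulated replicate 1).

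**Figure D2:**
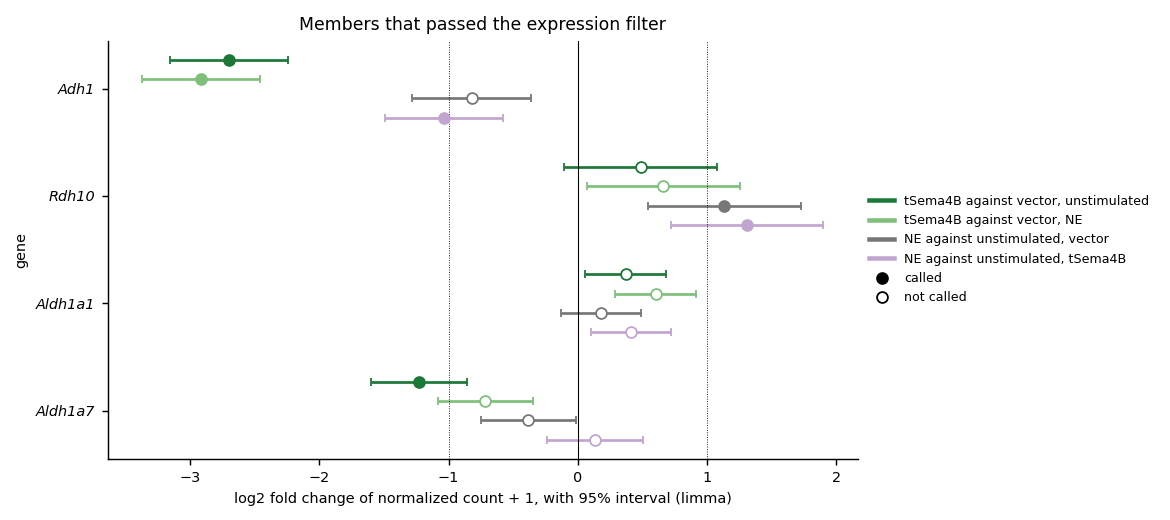
Log2 fold changes of normalised count + 1 (x axis) with 95% intervals from limma for the 4 members that passed the filter (y axis), in the 4 comparisons by colour; filled points were called, dotted lines mark the fold threshold of 1. Adh1 lies at -2.70 and -2.92 between lines, Rdh10 at 1.13 and 1.31 with NE, and Aldh1a1 and Aldh1a7 lie on opposite sides of 0 in both comparisons of lines.

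Within the paralogue pair the balance of reads moved towards Aldh1a1 in tSema4B cells. Aldh1a1 took 43.4%, 40.3% and 42.2% of the reads of the pair in vector unstimulated libraries and 78.6%, 60.9% and 65.3% in tSema4B unstimulated libraries. With NE it took 51.7%, 50.8% and 52.6% in vector cells and 69.5%, 73.8% and 74.9% in tSema4B cells. The highest vector share was thus below the lowest tSema4B share over all 12 libraries. The log2 ratio of Aldh1a1 to Aldh1a7 reads was 1.60 higher in tSema4B than in vector cells unstimulated and 1.32 higher with NE (two-sided exact permutation p = 0.1 in each, the smallest that 3 against 3 libraries allow). NE against unstimulated gave a ratio 0.56 higher in vector cells (exact permutation p = 0.1) and 0.28 higher in tSema4B cells (exact permutation p = 0.6). This ratio was examined after the values of both genes had been seen. The summed normalised count of the pair was 463 ± 25.0 (SD, n = 3) in vector and 371 ± 34.2 in tSema4B cells unstimulated, and 425 ± 11.8 and 462 ± 59.9 with NE. The sum gave log2 fold changes of -0.32 (adjusted p = 0.0698, limma) and 0.11 (adjusted p = 0.543), neither of which was called.

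**Figure D3:**
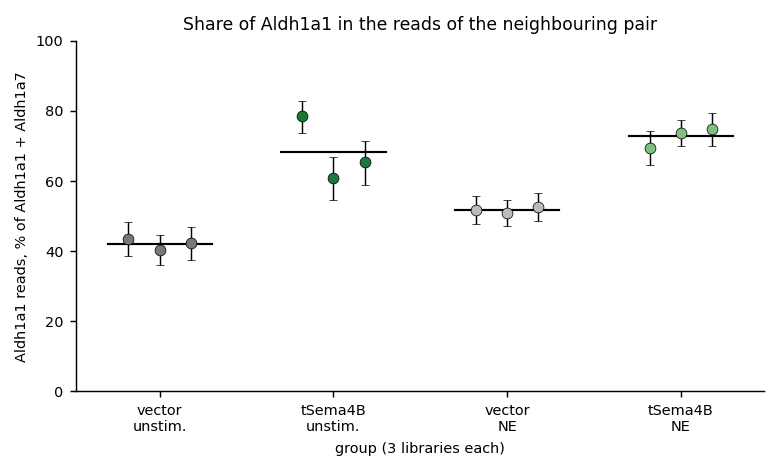
Share of Aldh1a1 in the reads of Aldh1a1 and Aldh1a7 together (y axis, percent) in each library by group (x axis); bars are exact (Clopper-Pearson) 95% binomial intervals, which cover counting error only, and lines are group means. Group means are 42.0%, 68.3%, 51.7% and 72.8% from left to right, and no tSema4B library falls to the level of a vector library.

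The other retinaldehyde dehydrogenases were barely present. Aldh1a2, the main form of the early embryo (ENSMUSG00000013584.5, chr9:71215789-71296243, plus strand), had 2 reads in vector unstimulated replicate 3 and none in the other 11 libraries. Aldh1a3, another retinaldehyde dehydrogenase (ENSMUSG00000015134.15, chr7:66390890-66427517, minus strand), had between 0 and 9 reads per library, with group totals of 8 and 7 reads in unstimulated vector and tSema4B cells and of 13 and 8 reads with NE. Its normalised counts ran from 0 to 7.73 and each group held a library at 0, so the groups overlapped throughout. Crabp2, which carries retinoic acid to its nuclear receptors (ENSMUSG00000004885.5, chr3:87948666-87953376, plus strand), had between 0 and 5 reads per library and group totals of 2, 3, 3 and 6 reads in the same order. When all 22569 genes with a read were tested with limma, the smallest adjusted p of Stra6, Aldh1a2, Aldh1a3 and Crabp2 in any comparison was 0.504, and at this depth differences in these genes were not detectable.

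Per kilobase of annotated exon the order of the members changed between groups. In vector unstimulated libraries Adh1 (132 ± 23.7 normalised counts per kb, SD, n = 3) and Aldh1a7 (130 ± 5.05) were highest and overlapped, followed by Aldh1a1 (39.4 ± 3.30) and Rdh10 (8.57 ± 1.42). In tSema4B NE libraries Aldh1a1 (68.2 ± 10.9) and Aldh1a7 (60.5 ± 4.99) were highest and overlapped, followed by Rdh10 (31.9 ± 12.5), with Adh1 last of the 4 (9.50 ± 1.69). Rdh10 was thus below Adh1 in every vector unstimulated library and above it in every tSema4B NE library, where the ranges were 18.7 to 43.7 and 7.69 to 11.0 per kb. The level of Aldh1a1 depends on the length used, since its 4937 exonic bases include alternative transcripts: over its main transcript of 2053 bases it had 94.7 ± 7.94 per kb in vector unstimulated and 164 ± 26.1 in tSema4B NE libraries. Its rank by mean in these groups was the same with either length. In tSema4B NE libraries, however, it overlapped Aldh1a7 only over the merged exons. Over the main transcript it was at 136 to 187 per kb, against 56.3 to 66.0 for Aldh1a7. In vector NE libraries its mean went from 44.5 to 107 per kb, past Adh1 (74.1) and Aldh1a7 (99.4). In tSema4B unstimulated libraries it went from 51.4 to 124 per kb, past Aldh1a7 (56.7). The 4 low members had means of at most 3.37 normalised counts in any group.

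Read against all tested genes, the members' calls were as follows. In tSema4B against vector cells 2 members (Adh1 and Aldh1a7) were called lower and 0 higher unstimulated, where 2.71% of all tested genes were called lower and 1.11% higher. With NE 1 member (Adh1) was called lower and 0 higher, against 3.73% lower and 2.03% higher. These last shares shift with the scaling, as 244 genes were called higher and 447 lower here but 346 and 362 with the same total per library. NE against unstimulated called 1 member higher (Rdh10) in vector cells, where 1.66% of genes were called higher and 0.975% lower, and 1 higher (Rdh10) and 1 lower (Adh1) in tSema4B cells, where the shares were 1.31% and 0.758%. The interaction called 0 members and 0.025% of all genes, and 0 members reached an unadjusted p of 0.05 with limma, edgeR or DESeq2 over the tested genes. Without the filter on low counts Aldh1a7 was just under it in the limma fit (adjusted p = 0.673 over 22569 genes).

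Genes elsewhere in the pathway gave a mixed picture. Of 42 other genes of retinoid transport, oxidation, breakdown, reception and response, 11 had no read and 21 were tested. In tSema4B against vector cells 1 was called higher and 5 lower unstimulated (median log2 fold change of the 21 genes -0.18, against -0.003 over all genes), and 1 higher and 4 lower with NE (median -0.29, against -0.01). With NE 0 were called in vector cells by limma, edgeR or DESeq2 (median 0.09, against -0.02), where 6 had an unadjusted p under 0.05 by limma and 7 by each of the others (23.9%, 25.7% and 25.3% of all tested genes did), and 2 were called higher and 1 lower in tSema4B cells (median -0.009, against -0.005). The interaction called none of them.

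Of 4 tested carriers and storage enzymes, 3 were called lower in tSema4B cells unstimulated and 1 was not called. Rbp4, the plasma carrier of retinol that fat cells secrete, was at 207, 189 and 162 normalised counts in vector and 19.1, 21.7 and 31.5 in tSema4B cells unstimulated (log2 fold change -2.93, adjusted p = 5.07e-09, limma). With NE it was at 221, 296 and 204 against 63.3, 47.3 and 67.4 (-2.00, adjusted p = 1.58e-06), and NE raised it in tSema4B cells (1.28, adjusted p = 9.24e-04, but 0.0675 when only those 6 libraries were fitted). In vector cells Rbp4 was not called with NE (0.35, adjusted p = 0.373), and the interaction did not pass (0.93, adjusted p = 0.301). The lines did not overlap. Fabp5, a fatty acid binding protein that also carries retinoic acid, fell in tSema4B cells by 1.44 unstimulated and by 1.90 with NE on the log2 scale (adjusted p = 2.74e-07 and 4.35e-09). Dgat1, an acyltransferase that can esterify retinol, fell by 1.49 unstimulated (adjusted p = 2.76e-05) and rose with NE in tSema4B cells by 1.11 (adjusted p = 0.00180, and 0.97 without tSema4B NE replicate 1). With NE it was not called between the lines (-0.76, adjusted p = 0.0125), nor with NE in vector cells (0.38, adjusted p = 0.285), and the interaction did not pass (0.73, adjusted p = 0.388). Crabp1, a cellular carrier of retinoic acid, was at 58.6, 37.8 and 57.7 normalised counts in vector and 84.6, 71.2 and 76.7 in tSema4B cells unstimulated. Every tSema4B library was above every vector library, but the gene was not called (log2 fold change 0.61, adjusted p = 0.228), and with NE the lines overlapped (0.32, adjusted p = 0.509).

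Among the other oxidoreductases Retsat, which saturates retinol, fell in tSema4B cells by 1.01 unstimulated (adjusted p = 4.35e-04, limma) and by 1.23 with NE (adjusted p = 3.32e-05). The first of these stands at the fold threshold, and its call was lost in 7 of 18 alternatives, where it was -0.94 with a pseudocount of 10, -0.98 with the same total per library, -0.999 with edgeR, -0.99 with DESeq2, -0.98 without vector unstimulated replicates 1 or 2 and -0.85 without tSema4B unstimulated replicate 2. Adh7, an alcohol dehydrogenase active on retinol and a neighbour of Adh1 on chromosome 3, went against Adh1 between the lines, at 187 ± 8.48 in vector and 301 ± 37.3 in tSema4B unstimulated libraries (0.68, adjusted p = 0.00432, under the fold threshold). With NE present the difference between lines was 0.41 (adjusted p = 0.0662). NE lowered it, as it did Adh1, by 0.84 in vector cells (adjusted p = 0.00104, under the fold threshold) and by 1.11 in tSema4B cells (adjusted p = 7.80e-05, and by 0.99 without tSema4B NE replicate 2). Dhrs4 went the other way from Adh7 between the lines, at -0.81 unstimulated (adjusted p = 0.00424, limma), under the fold threshold and without overlap. With NE present it was at -0.33 (adjusted p = 0.216). Between the lines with NE, Dhrs3 was at 0.61 (adjusted p = 0.0107) and Adh5 at -0.35 (adjusted p = 0.0239), both under the fold threshold. Of the 3 Cyp26 enzymes that break down retinoic acid none passed the filter.

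Among the receptors Rarb, a retinoic acid receptor whose own gene is a known retinoic acid target, was the only 1 of the 21 tested called higher in tSema4B cells. It was at 20.6, 5.89 and 20.7 normalised counts in vector and 67.9, 77.3 and 60.2 in tSema4B cells unstimulated (log2 fold change 2.23, adjusted p = 6.61e-04, limma), and at 14.1, 21.9 and 9.82 against 40.7, 45.5 and 58.1 with NE (1.64, adjusted p = 0.00659). The lines did not overlap, and Rarb was called in both conditions under every alternative run. Rxra, a partner of these receptors and of PPARG, fell by 1.10 unstimulated (adjusted p = 0.00336, and by 0.94 without vector unstimulated replicate 1 or 0.96 without tSema4B unstimulated replicate 3), and Rxrb by 1.07 with NE (adjusted p = 0.00279, and by 0.86 without tSema4B NE replicate 2). Each of these calls was kept in 15 of 18 alternatives. In the other condition the lines overlapped for both genes, at -0.34 for Rxra with NE (adjusted p = 0.361) and -0.12 for Rxrb unstimulated (adjusted p = 0.812), and neither interaction passed (adjusted p = 0.443 and 0.321). The receptors Rara and Rarg were at 0.58 (adjusted p = 0.0105) and 0.81 (adjusted p = 4.67e-04) with NE, under the fold threshold, and at 0.14 and 0.31 unstimulated (adjusted p = 0.635 and 0.182). Tgm2 and Rarres1, the 2 tested genes of a list of 5 that respond to retinoic acid, were not called in any comparison.

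**Figure D4:**
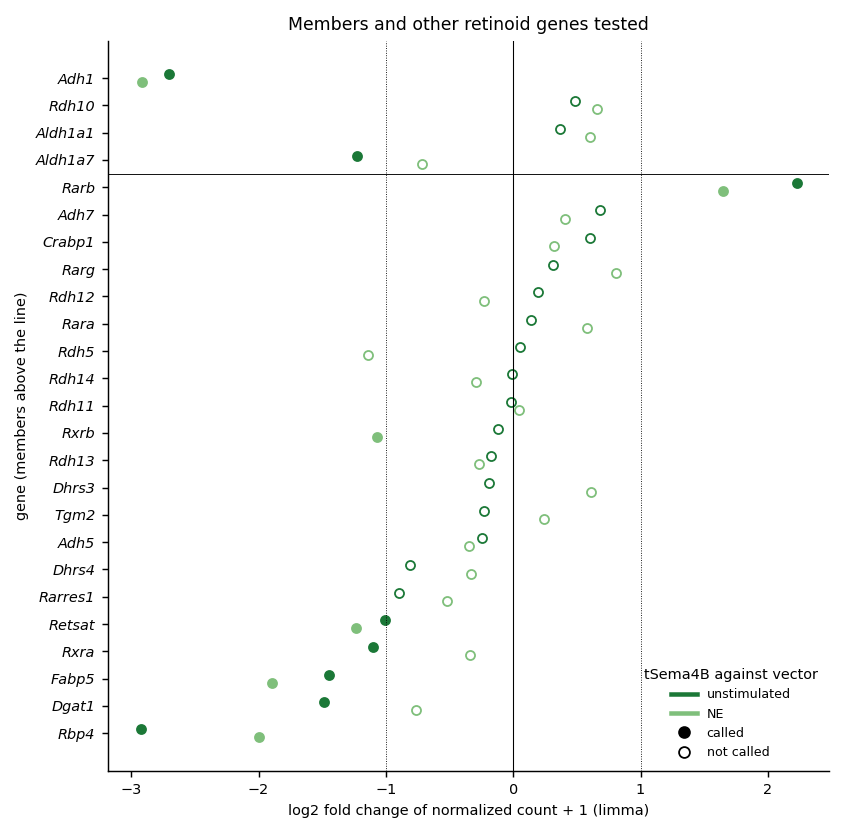
Log2 fold change of normalised count + 1 in tSema4B against vector cells (x axis) for the 4 tested members, above the line, and the 21 other retinoid genes tested, below it (y axis), unstimulated and with NE by colour; filled points were called and dotted lines mark the fold threshold of 1. Adh1 and Rbp4 lie farthest to the left and Rarb farthest to the right.

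Genes with a pattern like that of each member were found by the root mean square difference of centred log2 values over the 12 libraries, a description of these libraries with no test. For Adh1 this was Cd36 (0.44), against a median of 1.53 over all tested genes, and Cd36, a fatty acid transporter, is among the adipocyte markers. For Rdh10 they were Cebpd (0.27) and Elmo1 (0.33, median 0.83), where Cebpd is an early transcription factor of adipogenesis. For Aldh1a1 it was Tram1 (0.14, median 0.48), and for Aldh1a7 D230025D16Rik (0.18, median 0.64). Among the members themselves the closest pair was Rdh10 and Aldh1a1 (0.56) and the most distant Adh1 and Rdh10 (2.04), while the paralogues Aldh1a1 and Aldh1a7 were 0.81 apart.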

How the data were processed

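The authors aligned reads of 12 libraries to the mouse genome (mm10, GRCm38.p4) with STAR 2.7.9a, counted them per gene with HTSeq and scaled the counts with DESeq2 size factors. The deposited signal is thus a normalised count per gene. In every library 100% of values were multiples of what 1 read is worth (tolerance 0.01), so whole reads were recovered. Depth was between 2000780 and 5409583 reads, a ratio of 2.70.

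In R 4.3.3, limma 3.58.1 (trend) was fitted over the 4 groups to log2(normalised count + 1), with at least 10 in 3 libraries (11998 genes), two-sided tests and Benjamini-Hochberg adjustment. Alternatives included edgeR 4.0.16 and DESeq2 1.42.0 on the recovered reads, other scalings, pseudocounts and filters, and each library left out. The fit was also run on simulated data, and no result given here rests on that run. Members and lists were chosen with earlier results of these data known. Named were all members, other retinoid genes called in a comparison of groups, and genes among the 2 nearest each tested member, some results not being reported here. Crabp1, Dhrs3, Dhrs4, Adh5, Rara, Rarg, Tgm2, Rarres1 and the cell type markers other than Cd36 fall outside this rule and were named after their values were seen. Symbols of all 91 listed genes matched GENCODE M21 once. Libraries of a group differed by more than sampling noise (chi-square over its degrees of freedom 3.56 to 5.79).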

Additional observations from a re-analysis of the deposited data

How the results depend on the processing

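Depth limits Stra6, Aldh1a2, Aldh1a3 and Crabp2, and strand and multiple-hit handling limit Adh1, Aldh1a1 and Aldh1a7. Of 396 repeated member fold changes 377 kept direction and side of the threshold. The number of members called became 3 with NE between lines and 2 with NE in vector cells at the adjusted p alone, 0 in vector and 1 in tSema4B cells with NE at a pseudocount of 10, 1 in tSema4B cells with NE under quantile normalization or with 6 libraries only, and 1 between unstimulated lines with Aldh1a1 and Aldh1a7 summed. With each library left out it ranged from 2 to 2 and from 1 to 2 between lines (unstimulated, NE), from 0 to 1 (vector) and from 1 to 2 (tSema4B) with NE, and from 0 to 0 for the interaction. Summing also turned Aldh1a1 to -0.32 between unstimulated lines and to -0.12 with NE in vector cells, and Aldh1a7 to 0.11 between lines with NE, by construction. Leaving out a library gave ranges of -0.089 to 0.34 for Aldh1a7 with NE in tSema4B cells and of -0.092 to 0.51 for the interaction of Rdh10, which was -0.063 without tSema4B unstimulated replicate 2. The cause was not tested. Replicate numbers did not pair the libraries (r from -0.05 to 0.03 over 18 pairs), and with the replicate block 2, 1, 1, 2 and 0 members were called, as without it. Over all genes the interaction called 3 with limma but 101 with DESeq2 and 0 with no filter, and between 1 and 31 with a library left out. The 16 lost calls among other retinoid genes kept their direction.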
